A study of Mus musculus with 9 samples.

Results

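Interferon regulatory factors (IRFs) and Batf2 were followed in cloned mouse bone marrow stromal cells with and without interferon-γ (IFNγ). The genes were chosen by name from the deposited count table, which held 1 identifier for each of the 8 names: Irf1 (ENSMUSG00000018899), Irf2 (ENSMUSG00000031627), Irf3 (ENSMUSG00000003184), Irf5 (ENSMUSG00000029771), Irf7 (ENSMUSG00000025498), Irf8 (ENSMUSG00000041515), Irf9 (ENSMUSG00000002325) and Batf2 (ENSMUSG00000039699). They are 8 of the 24186 genes in the table, and all 8 were among the 15098 genes that passed a filter on low counts. Irf8 and Batf2 passed it through the treated libraries, where they were high. The 9 poly(A) RNA libraries formed 3 groups of 3. Untreated adipogenic progenitors had the potential to form fat cells, treated ones were such progenitors given 10 ng/ml IFNγ for 3 days, and osteogenic progenitors had the potential to form bone and received no IFNγ. All groups came from the femora and tibiae of adult C57Bl/6 mice with the transgene irtTA-GBD*-TAg, whose large T antigen is switched on by dexamethasone with doxycycline, and all had grown with both inducers and then been kept without them for 3 days. Libraries are named by the number 4, 5 or 6 in their label. The series design calls the libraries of a group biological replicates. Which clone or animal a number stands for is not in the labels. The tests thus see only the spread among these libraries, and whether it covers differences between animals is not given.

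IRFs are transcription factors that share a DNA-binding domain at the amino end and recognise the interferon-stimulated response element (ISRE). Type II interferon, IFNγ, acts through JAK kinases and STAT proteins, which bind the IFNγ-activated site (GAS) and switch on Irf1, and IRF1 then carries the response to a further wave of genes. IRF2 competes with IRF1 for the same sites and mostly represses, IRF9 is the DNA-binding part of the complex ISGF3, and IRF3, IRF5 and IRF7 are switched on by phosphorylation after nucleic acids or microbial products are sensed. IRF8 is best known from myeloid and B cells, and BATF2 is a basic leucine zipper protein of the AP-1 group that partners IRF1 in activated macrophages.

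Promoter windows were searched for the GAS and the core of the ISRE. RefSeq windows on GRCm38.p6 ran from 250 bases before to 50 bases after an annotated start. They were found for 7 of the 8 genes, in 10 windows, since Irf1, Irf8 and Irf9 have several starts. Batf2 had no window, so nothing is shown for it. Each window was searched on both strands for TTCNNNGAA, the GAS, which reads the same on either strand. The core of the ISRE was taken as GAAA, any 2 bases and GAAA again. The GAS was found in 3 of the 10 windows and in 8.3% of the 32851 mouse windows of this length, and the ISRE core in 1 of 10 and in 3.44%. The 3 windows with a match, from Irf1 at chr11:53769764-53770063, Irf2 at chr8:46739495-46739794 and Irf8 at chr8:120736108-120736407, all on the plus strand, are given 5′ to 3′ with the matches in capitals.
Irf1: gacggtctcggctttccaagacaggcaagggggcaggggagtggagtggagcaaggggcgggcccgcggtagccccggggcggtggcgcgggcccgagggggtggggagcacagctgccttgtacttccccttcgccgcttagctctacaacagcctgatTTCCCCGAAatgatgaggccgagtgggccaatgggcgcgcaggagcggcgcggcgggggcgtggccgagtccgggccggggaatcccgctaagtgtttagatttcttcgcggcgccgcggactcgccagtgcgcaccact
Irf2: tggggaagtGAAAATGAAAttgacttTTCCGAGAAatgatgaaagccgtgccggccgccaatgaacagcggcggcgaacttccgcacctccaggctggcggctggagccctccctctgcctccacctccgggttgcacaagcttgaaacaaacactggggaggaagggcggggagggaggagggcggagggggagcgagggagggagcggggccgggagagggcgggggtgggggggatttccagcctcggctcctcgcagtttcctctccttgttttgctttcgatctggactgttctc
Irf8: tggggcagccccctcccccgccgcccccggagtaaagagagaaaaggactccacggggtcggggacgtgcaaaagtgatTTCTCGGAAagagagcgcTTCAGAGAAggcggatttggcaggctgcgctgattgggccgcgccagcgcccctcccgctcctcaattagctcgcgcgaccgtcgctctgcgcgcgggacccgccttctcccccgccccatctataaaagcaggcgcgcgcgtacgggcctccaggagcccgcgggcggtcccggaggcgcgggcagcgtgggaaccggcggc
In Irf1 the match TTCCCCGAA spans bases −90 to −82 from the annotated start. Irf2 holds GAAAATGAAA at −241 to −232 and TTCCGAGAA at −224 to −216, so both motifs stand close together there. Irf8 holds TTCTCGGAA at −171 to −163 and TTCAGAGAA at −153 to −145. No match was found in the windows of Irf3, Irf5, Irf7 and Irf9, which says only that these letters are not in those windows. A match is a description of sequence and not evidence of binding.

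Library totals were 27440089 to 39251602 counts. Levels are given as CPM, counts scaled to the size of the library. Taken as 3 counts, the limit behind a count of 0 lay between 0.0749 and 0.113 CPM, and limits and intervals from counts cover counting error alone. Of 11 stromal markers the collagen genes Col1a1 and Col1a2 had the highest means in every group. The 11 summed to 12998 to 23078 CPM in untreated adipogenic, 6764 to 7459 in treated and 53293 to 77144 in osteogenic libraries. Among those markers Thy1 was at or near 0 everywhere (mean of at most 0.00985 CPM) and Lepr low (0.219 to 0.376 CPM). In untreated, treated and osteogenic libraries Nt5e averaged 1.12, 1.53 and 3.62 CPM, and Eng 2.85, 2.63 and 21.9 CPM. Pdgfrb averaged 314, 206 and 365 CPM there, and Vcam1 122, 130 and 52.9 CPM. Log2 fold changes stand with their SE after ±, and each adjusted p is that of the quasi-likelihood test in edgeR, adjusted over all 15098 genes.

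With IFNγ, 5 of the 8 genes rose and none fell, beside 2.01% of all genes tested that were called higher and 0.245% called lower. The libraries of the groups did not overlap for 6 of the 8, all higher with IFNγ, against 10.2% of all genes that lay higher and 7.17% that lay lower without overlap. The median log2 fold change of the 8 was 1.54, against −0.02 over all genes tested. Batf2 and Irf8 went from near absence to clear expression, Irf1 and Irf7 rose from a level they already had, and Irf2 rose the least of the 5.

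**Figure D1:**
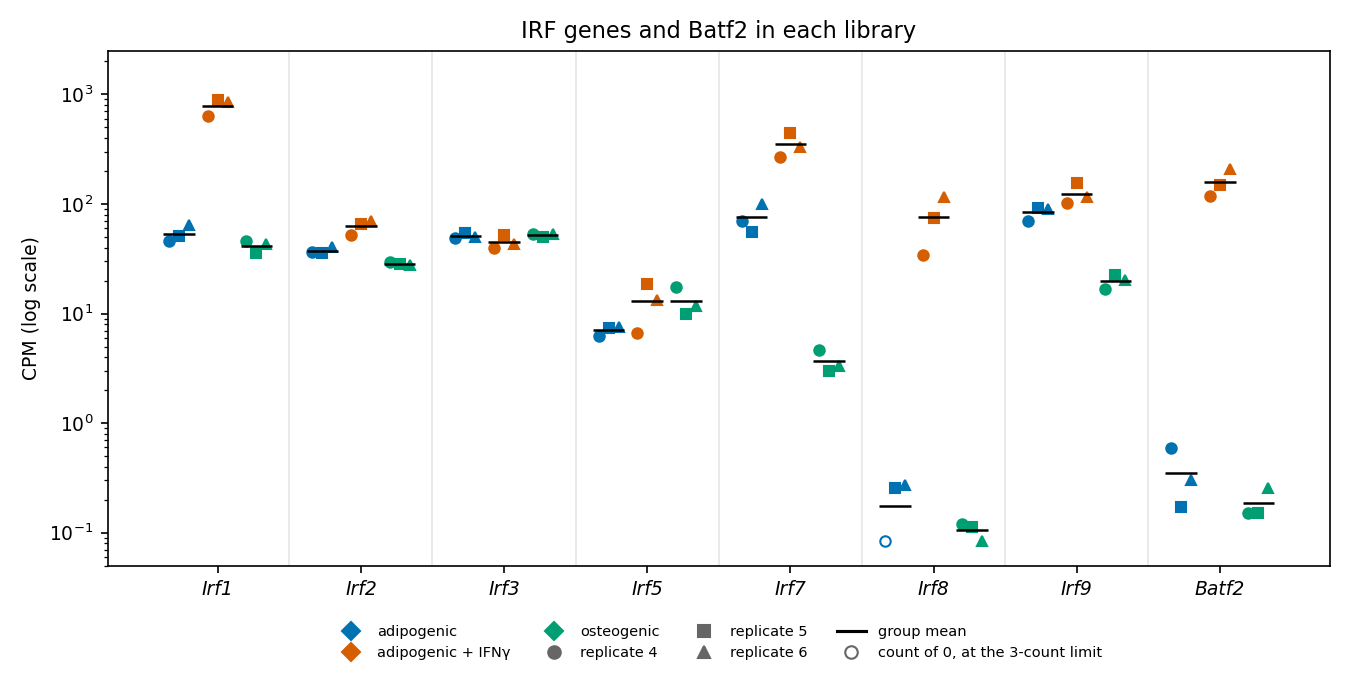
CPM of the 8 genes on a log axis in each of 9 libraries, with colours for groups, shapes for the replicate number and bars for group means. Irf8 and Batf2 lie under 0.6 CPM in every untreated and osteogenic library and above 34 CPM in every treated one, and the osteogenic libraries lie lowest for Irf7 and Irf9.

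Irf1, the activator at the head of the IFNγ response, stood at 45.7, 50.6 and 64.5 CPM in untreated libraries 4, 5 and 6 and at 634, 883 and 855 CPM in the treated ones. Every treated library was far above every untreated one. The log2 fold change was 3.88 ± 0.21, or 14.7-fold (adjusted p = 9.29e-05), and the call held when any 1 of the 6 libraries was dropped (largest adjusted p 0.00116). Irf2, the competing repressor, stood at 36.8, 35.4 and 40.2 CPM without and 52.4, 65.6 and 69.4 CPM with IFNγ. Its groups did not overlap either, and it rose 1.67-fold (0.74 ± 0.13, adjusted p = 0.0279). That call was lost without untreated replicate 4 (adjusted p = 0.118), 5 (0.106) or 6 (0.0732), without treated replicate 5 (0.0883) or 6 (0.126), and with only the 6 libraries compared (0.138). It held when same-numbered libraries were paired (adjusted p = 0.00788).

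Batf2 stood at 0.591, 0.171 and 0.299 CPM in untreated libraries 4, 5 and 6, on 21, 6 and 12 counts, and at 119, 149 and 206 CPM with IFNγ. The treated libraries thus held Batf2 at a level above that of Irf2 in the same libraries also per length, as given below. Its log2 fold change of 8.79 ± 0.46 was the 8th largest of all genes tested (adjusted p = 9.09e-05). The 95% interval of that log2 fold change, which covers the spread among libraries, was 7.73 to 9.86. Pooled counts of 16587 against 39 gave a ratio of 451 (exact 95% interval 329 to 634, for counting error alone).

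Irf8 had 0, 9 and 11 counts in the untreated libraries, which is 0, 0.256 and 0.274 CPM, and 34.0, 75.2 and 116 CPM with IFNγ. Relative to their mean, treated libraries differed from each other more for Irf8 than for Irf1, but all were far above the untreated ones. The log2 fold change was 8.69 ± 0.83 (adjusted p = 0.00141), the 11th largest of all. The 95% interval of that log2 fold change, which covers the spread among libraries, was 6.77 to 10.6. Pooled counts of 7919 against 20 gave a ratio of 419 (exact 95% interval 271 to 687, for counting error alone). Against the limit of 3 counts, Irf8 was at least 403-fold higher in treated than in untreated library 4.

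Markers of blood cells, in which Irf8 is best known, were read in the same libraries. The 12 myeloid and lymphoid markers in the table summed to 7.69 to 22.1 CPM in untreated, 7.92 to 13.7 in treated and 6.47 to 8.69 in osteogenic libraries. The largest part of that was Cd68, a lysosomal protein gene of macrophages, at 10.3 ± 7.27, 8.39 ± 3.19 and 3.99 ± 0.474 CPM (SD, n = 3). Of the 5 markers tested 0 passed with IFNγ (edgeR, and likewise with the other tools and the pairing). Between osteogenic and adipogenic libraries 0 passed with edgeR, but Cd68 and Lyz2 did with DESeq2, and Fcer1g and Lyz2 with a replicate block over all 9 libraries. Ptprc, which codes for the pan-leukocyte antigen CD45, had 4, 2 and 2 counts over the 3 untreated, 3 treated and 3 osteogenic libraries, and Cd3g had 0 in all 9. Spi1, the myeloid partner of IRF8 that the table names Sfpi1, had 4, 1 and 0 counts. The part of such cells in the level of Irf8 was not tested.

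Irf7, which amplifies type I interferon responses, stood at 70.0, 55.6 and 101 CPM without and 271, 447 and 334 CPM with IFNγ. All treated libraries lay above all untreated ones, and Irf7 rose 4.64-fold (2.22 ± 0.29, adjusted p = 0.0058). Dropping any 1 of the 6 libraries kept the call (largest adjusted p 0.0428). Irf9, the DNA-binding subunit of ISGF3, stood at 69.8, 92.2 and 89.0 CPM without and 103, 155 and 115 CPM with IFNγ. The groups did not overlap, but Irf9 did not pass the test (0.57 ± 0.19, adjusted p = 0.209). With same-numbered libraries paired it passed (0.56 ± 0.13, adjusted p = 0.0398), in a fit that called 6.53% of all genes higher and 4.27% lower, and 6 of the 8 genes were then called.

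Irf3 and Irf5, both activated by phosphorylation, did not pass. Irf3 stood at 49.3, 54.1 and 49.7 CPM without and 39.5, 51.8 and 43.4 CPM with IFNγ, and the groups overlapped. Its log2 fold change was −0.18 ± 0.13 (95% interval −0.47 to 0.10, adjusted p = 0.593), so a change of the size seen in Irf2 lies outside its interval. Irf5 stood at 6.25, 7.37 and 7.46 CPM without and 6.65, 18.7 and 13.3 CPM with IFNγ. Treated library 4 lay among the untreated ones and the other two lay above them (0.87 ± 0.37, 95% interval 0.02 to 1.72, adjusted p = 0.331). In GENCODE M21, 14.1% of the exonic bases of Irf5 lie opposite exons of Tnpo3, so reads of these genes can be told apart only if strand was used in counting, which is not stated. Overlap with exons on the opposite strand was 3.4% or less of the exonic bases in Irf1, Irf3, Irf7 and Batf2. Irf9 shares 2.28% with Rnf31 on the same strand, where strand cannot separate the reads.

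**Figure D2:**
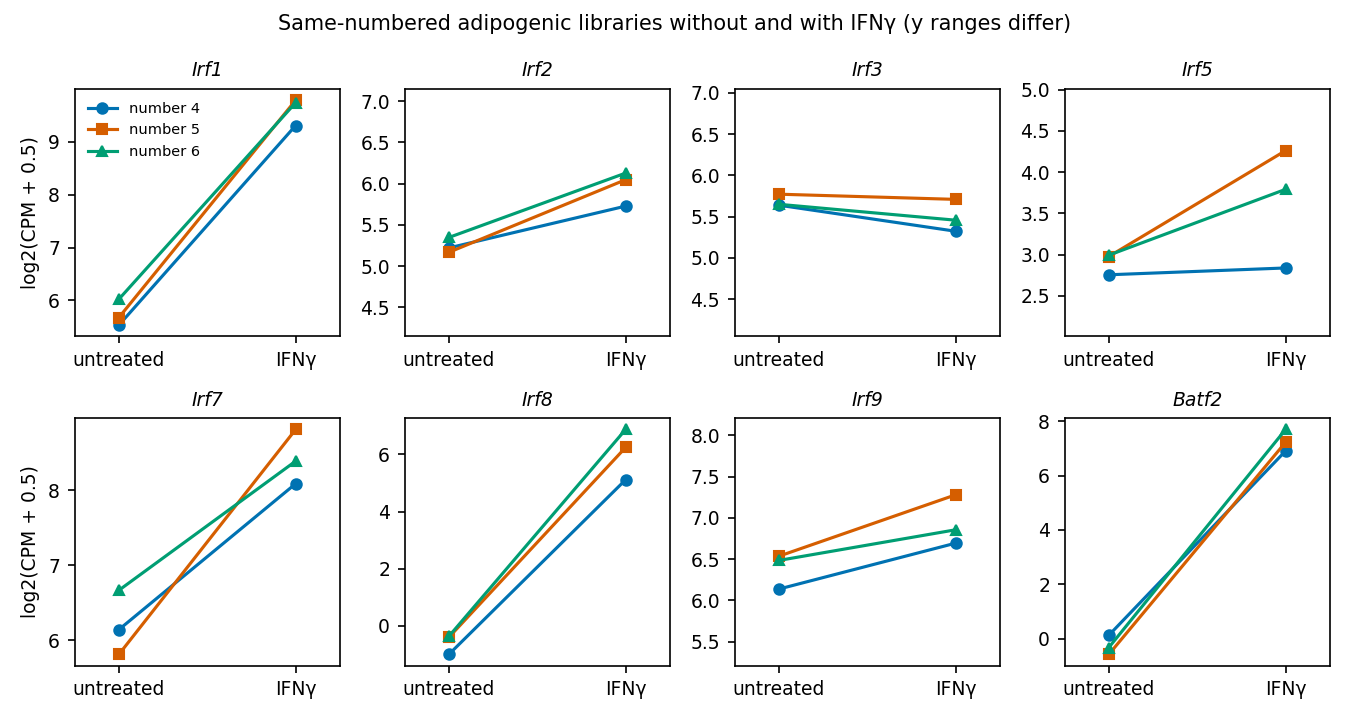
Values of log2(CPM + 0.5) in untreated and IFNγ-treated adipogenic libraries, with lines joining libraries of the same number and panels for the 8 genes with differing y ranges. All 3 lines rise for Irf1, Irf2, Irf7, Irf8, Irf9 and Batf2, all 3 fall slightly for Irf3, and number 4 stays nearly flat for Irf5.

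Pairing by number shows how far the responses varied. Batf2 rose 202-, 872- and 689-fold in numbers 4, 5 and 6, over untreated counts of 21, 6 and 12. Irf8 rose 294- and 424-fold in numbers 5 and 6, over 9 and 11 counts, and number 4 had 0 untreated counts. Irf1 rose 13.9-, 17.4- and 13.3-fold in numbers 4, 5 and 6, and Irf2 1.43-, 1.85- and 1.73-fold. Number 5 had the highest ratio for Irf7, 8.05-fold, beside 3.87-fold in number 4 and 3.31-fold in number 6, and it also had the lowest untreated level. The ratios of Irf9 were 1.47, 1.68 and 1.30 and those of Irf5 were 1.06, 2.53 and 1.79. Irf3 gave 0.801, 0.957 and 0.874, below 1 in 3 of 3 pairs. Ratios within a pair have no error of their own.

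Levels of different genes were compared per length, as CPM per kilobase of exon. In untreated adipogenic libraries Irf7 was highest at 24.98 ± 7.66 (SD, n = 3). Irf3 (16.02 ± 0.842), Irf9 (15.5 ± 2.25), Irf2 (15.1 ± 0.99) and Irf1 (13.5 ± 2.45) followed, and neighbours in that order overlapped. Irf5 (2.42 ± 0.232), Batf2 (0.14 ± 0.0855) and Irf8 (0.0251 ± 0.0218) lay below without overlap. With IFNγ the order per length was Irf1 (199 ± 34.4), Irf7 (116 ± 29.6), Batf2 (62.7 ± 17.6), Irf2 (25.1 ± 3.58), Irf9 (23.1 ± 5.03), Irf3 (14.1 ± 1.97), Irf8 (10.7 ± 5.84) and Irf5 (4.44 ± 2.07). There Irf2 overlapped Irf9, Irf3 overlapped Irf8 and Irf8 overlapped Irf5. Batf2 thus moved from below Irf5 to the third place, and its libraries did not overlap those of Irf7 or Irf2.

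The summed level per length of the 7 IRF genes was 80.1, 82.0 and 100.5 in untreated libraries 4, 5 and 6, 309, 459 and 410 in treated ones and 50.7, 44.7 and 47.4 in osteogenic ones. Irf1 made up 14.4, 15.5 and 16.1% of it without and 51.6, 48.4 and 52.5% with IFNγ. The difference of 35.5 percentage points had an exact two-sided permutation p of 0.1, the smallest that 3 libraries against 3 can give. The share of Irf7 was 28.2 ± 5.44% without and 29.4 ± 2.68% with IFNγ (SD, n = 3). The shares of Irf2, Irf3 and Irf9 were 17.3, 18.5 and 17.8% in untreated libraries and 6.47, 3.63 and 5.9% in treated ones, while their levels per length were 15.1, 16.02 and 15.5 without and 25.1, 14.1 and 23.1 with IFNγ. Per length, Irf1 stood to its repressor Irf2 as 0.891 ± 0.113 without IFNγ, as 7.89 ± 0.459 with it and as 0.907 ± 0.108 in osteogenic libraries.

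**Figure D3:**
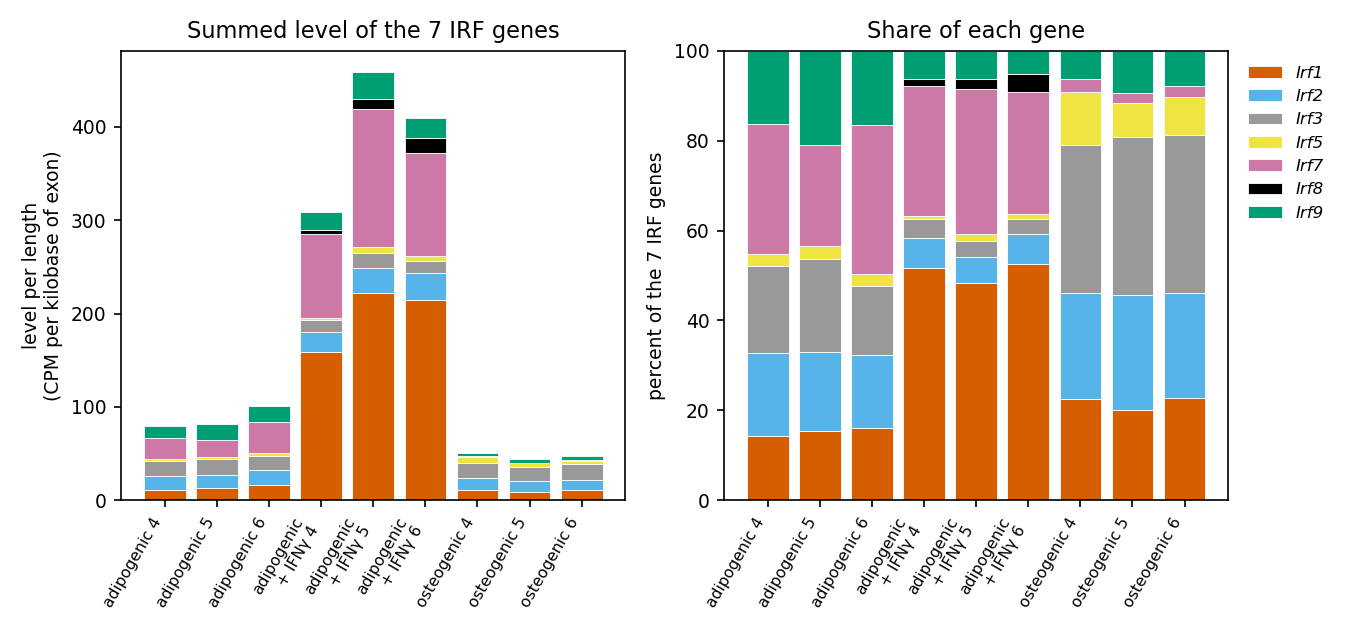
Left, the level per length (CPM per kilobase of exon) of the 7 IRF genes stacked for each library, and right, each gene as a percent of that sum. Treated libraries reach 309 to 459 with Irf1 at 48.4 to 52.5% of the sum, and osteogenic libraries stay at 44.7 to 50.7 with Irf3 as the largest share.

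Osteogenic progenitors differed from untreated adipogenic ones in Irf7 and Irf9, although neither group had received IFNγ. Both were lower, beside 3.19% of all genes tested that were called lower and 1.98% called higher, in all 5.17%. Higher calls among the 8 were 0 with edgeR. Before adjustment Irf5 was higher (edgeR, unadjusted p = 0.0436) and Irf2 lower (0.0171), and neither passed after it. Irf7 stood at 4.65, 3.01 and 3.33 CPM in osteogenic libraries 4, 5 and 6, against 55.6 to 101 CPM in untreated adipogenic ones. No library came near the other group, and the log2 fold change was −4.36 ± 0.32, or 20.6-fold lower (adjusted p = 0.00102). Irf9 stood at 16.9, 22.6 and 20.2 CPM, against 69.8 to 92.2 CPM, and was 4.21-fold lower (−2.07 ± 0.20, adjusted p = 0.00223). Both calls held when any 1 of the 6 libraries was dropped, where the largest adjusted p was 0.0113 for Irf7 and 0.0205 for Irf9. In these bulk libraries fewer cells that express a gene and less RNA in each cell cannot be told apart.

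The other 6 genes did not pass between osteogenic and untreated adipogenic progenitors. Irf1 stood at 45.5, 35.7 and 43.0 CPM in osteogenic libraries, just below the untreated adipogenic range (−0.37 ± 0.19, 95% interval −0.81 to 0.06, adjusted p = 0.28). Irf2 stood at 29.6, 28.4 and 27.4 CPM, also below that range (−0.39 ± 0.13, 95% interval −0.70 to −0.09, adjusted p = 0.127). In all, 4 of the 8 genes lay lower without overlap, against 15.9% of all genes, and Irf5 lay higher without overlap, against 15.0%. Irf5 stood at 17.3, 9.82 and 11.7 CPM (0.88 ± 0.37, 95% interval 0.03 to 1.73, adjusted p = 0.2). Irf3 stood at 53.2, 49.9 and 53.2 CPM and had the narrowest interval, −0.26 to 0.32 around a log2 fold change of 0.03 (adjusted p = 0.916). Irf8 and Batf2 had 10 and 18 counts over the 3 osteogenic libraries. Their intervals ran from −3.02 to 1.53 and from −2.08 to 0.29, so changes within those ranges are not excluded. For counting error alone, the exact 95% interval of the pooled ratio was 0.243 to 1.30 for Irf8 and 0.289 to 0.962 for Batf2.

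Per length, osteogenic libraries held Irf3 highest at 16.3 ± 0.588, then Irf2 (11.5 ± 0.438), Irf1 (10.4 ± 1.29), Irf5 (4.46 ± 1.35), Irf9 (3.69 ± 0.535), Irf7 (1.21 ± 0.288), Batf2 (0.0734 ± 0.0237) and Irf8 (0.0150 ± 0.00269), where Irf2 overlapped Irf1 and Irf5 overlapped Irf9. Irf7 was thus 1st of the 8 in untreated adipogenic and sixth in osteogenic libraries. It made up 2.53 ± 0.441% of the summed IRF level there, and Irf3 34.4 ± 1.29%.

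**Figure D4:**
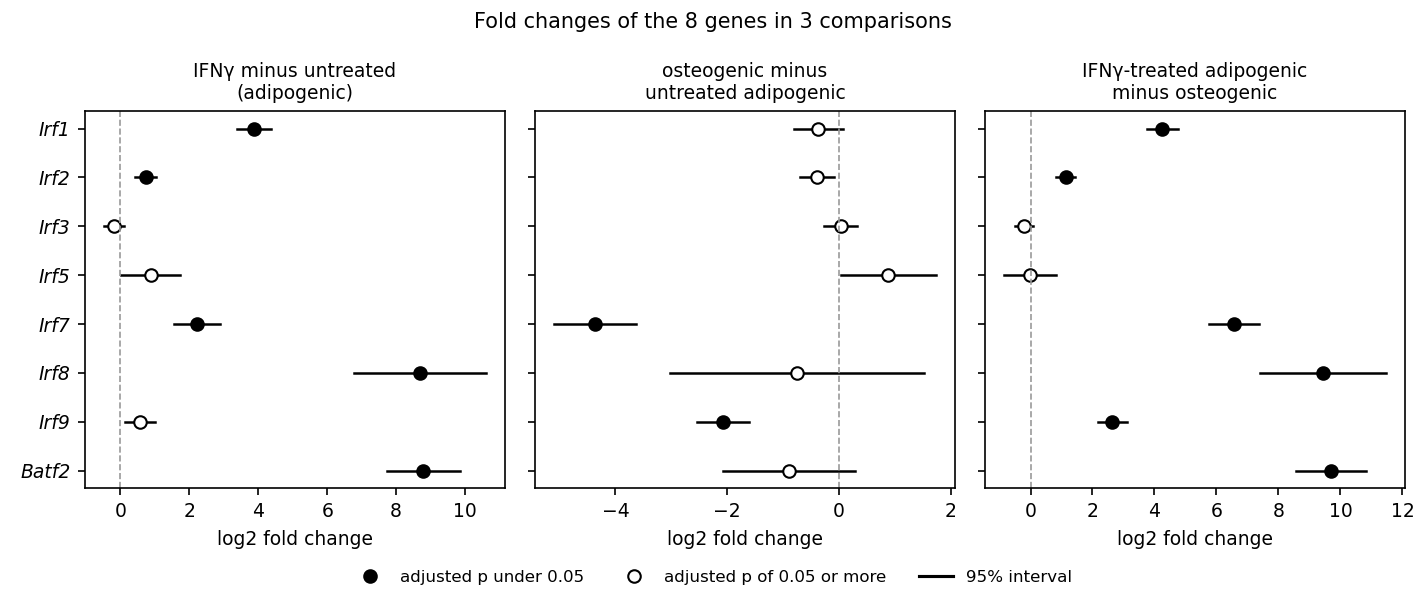
Log2 fold changes of the 8 genes with 95% intervals in 3 comparisons, filled where the adjusted p is under 0.05; x ranges differ. Irf7 and Irf9 are the genes called lower in osteogenic than in untreated adipogenic progenitors, and Irf3 and Irf5 are called in none of the 3.

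Treated adipogenic and osteogenic progenitors were furthest apart, and this comparison shares its libraries with the other 2. Of the 8 genes 6 were higher with IFNγ, where 9.20% of all genes were called higher and 7.52% lower, and for these 6 the groups did not overlap (19.7% of all genes lay higher and 18.8% lower without overlap). The log2 fold changes were 4.25 ± 0.22 for Irf1, 1.13 ± 0.13 for Irf2, 6.58 ± 0.35 for Irf7, 9.43 ± 0.89 for Irf8, 2.64 ± 0.20 for Irf9 and 9.69 ± 0.49 for Batf2, with adjusted p of 2.14e-05, 0.00135, 2.89e-05, 0.000437, 0.000157 and 2.19e-05. Irf7 was 95.4-fold higher, which combines its rise with IFNγ and its low osteogenic level. Irf3 (−0.21 ± 0.13, adjusted p = 0.288) and Irf5 (−0.01 ± 0.37, adjusted p = 0.991) did not pass.

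Genes that act before and beside the IRFs were read from lists, which were chosen with earlier results of these data known. Of 14 genes of the interferon receptors and JAK-STAT signalling, 6 rose with IFNγ and 1 fell, beside 2.01% and 0.245% of all genes. The median log2 fold change of the 14 was 0.51. Stat3 rose 1.27 on the log2 scale (adjusted p = 0.00461) and the feedback inhibitor gene Socs1 4.83 (0.00127). Stat2 rose 2.36 on the log2 scale (0.00045). The gene that fell was Ifngr2, a receptor chain named after its value was seen (adjusted p = 0.0398), whose call was kept on dropping treated replicate 5 and lost on dropping any of the other 5 libraries (largest adjusted p 0.188). Among the same 14 genes 2 were lower in osteogenic progenitors, beside 3.19% of all genes, and Stat2 was one of the 2 (−2.36, 0.00104). Socs3 was higher there (1.49, adjusted p = 0.0467), a call lost without any 1 of the 6 libraries compared (largest adjusted p 0.149).

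Over all genes tested 2.01% were called higher and 0.245% lower with IFNγ. Of 17 tested sensors, adaptors and kinases that lead to IRF3, IRF5 or IRF7, 5 rose and none fell, with a median of 0.19. The RNA sensor genes Ifih1 (1.76, adjusted p = 0.00573) and Ddx58 (1.33, 0.0153), the endosomal receptor gene Tlr3 (2.66, 0.00869) and Tmem173 (1.37, 0.0137), which codes for STING, were among them. The fifth, named after its value was seen, was E330016A19Rik, the table's name for the gene of the DNA sensor cGAS (0.0497), whose call was lost when any 1 of the 6 libraries was dropped (largest adjusted p 0.163). Without untreated replicate 4 only 1 of these was called, and without treated replicate 5 or 6 there were 3. Pairing same-numbered libraries gave 7, in a fit that called 6.53% of all genes higher. Tbk1, the gene of a kinase that phosphorylates IRF3 and IRF7, averaged 68.0 ± 9.83 CPM in untreated and 94.3 ± 3.56 CPM in treated libraries. It did not pass in the unpaired edgeR fit (adjusted p = 0.108). It passed in the paired edgeR fit (adjusted p = 0.0231) and also with DESeq2, which was unpaired. In osteogenic progenitors 4 of the 17 were lower, beside 3.19% of all genes. The 4 were Ifih1 (−2.85, adjusted p = 0.00172), Ddx58 (−1.72, 0.00711), Dhx58 (−3.63, 0.00739) and Tbk1 (−0.67, 0.0235). The Tbk1 call was lost without untreated replicate 6 or osteogenic replicate 4, 5 or 6 (largest adjusted p 0.0863).

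Of 9 tested genes for partners of IRF or BATF proteins, 1 rose with IFNγ, beside 2.01% of all genes. It was Batf3, a relative of Batf2 named after its value was seen, at 0.323 ± 0.0471 CPM without and 2.99 ± 0.681 CPM with IFNγ (3.20, adjusted p = 0.00869), and the call was lost without untreated replicate 4 (0.0507). With same-numbered libraries paired, Junb, an AP-1 gene also named after its value was seen, was called lower (adjusted p = 0.00883, against 0.213 unpaired), at 161 ± 42.1 CPM without and 81.3 ± 35.7 CPM with IFNγ. Of the interferon genes in the list 4 of 11 were in the table, and none passed the filter on low counts. Ifnb1 had 12, 13 and 1 counts over the untreated, treated and osteogenic libraries, and Ifna4 had 7, 5 and 0.

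Known targets of the factors were counted next, from lists chosen with earlier results of these data known. Shares over all genes are given beside the counts as description and not as a test. Of 17 genes bound or activated by IRF1, 13 rose with IFNγ and none fell, beside 2.01% and 0.245% of all genes. The median of the 17 was 3.06, against −0.02 over all genes. With the pairing 16 of the 17 rose, beside 6.53% of all genes. They included Ciita (9.40, adjusted p = 7.78e-05), the regulator of MHC class II genes, the GTPase gene Gbp2 (6.63, 0.00017), AI451557 (3.33, 0.00045), the table's name for the MHC class I regulator Nlrc5, and the chemokine gene Cxcl10 (5.62, 0.000859). In osteogenic progenitors 9 of the 17 were lower, beside 3.19% of all genes, and none higher, with a median of −1.67. Among the 9 were AI451557 (−2.73, adjusted p = 0.00205), the proteasome gene Psmb9 (−3.03, 0.00753), B2m (−1.67, 0.0111), which codes for the light chain of MHC class I, and Cxcl10 (−2.97, 0.0133). That count fell to 3, 4 and 2 without osteogenic replicate 4, 5 and 6. The call of Cxcl10 was lost without any 1 of these (largest adjusted p 0.062) and that of B2m without 4 or 6 (0.0607).

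Of 18 genes activated by ISGF3, a list chosen in the same way, 13 rose with IFNγ, beside 2.01% of all genes, with a median of 2.26. All 18 rose when same-numbered libraries were paired, in a fit that called 6.53% of all genes higher. The unpaired count was 8 without untreated replicate 4 and 6 with only the 6 libraries compared. The antiviral genes Ifi44 (2.84, adjusted p = 0.00311) and Ifit2 (2.41, 0.00356) were among them. All 18 were lower in osteogenic than in untreated adipogenic progenitors, beside 3.19% of all genes. The median of the 18 was −4.37, against −0.02 over all genes. Between 12 and 18 of the 18 were called with 1 library left out. Usp18, which codes for the protease that removes ISG15, stood at 85.1 ± 11.3 CPM in untreated adipogenic and 1.44 ± 0.462 CPM in osteogenic progenitors (−5.87, adjusted p = 0.000658), and Ifit1 at 189 ± 34.0 and 4.41 ± 1.26 CPM (−5.41, 0.00102). Stat2 is also a member of the list of signalling genes, and Socs1 of the IRF1 list. The IFNγ and the osteogenic comparison share the untreated libraries, so low or high values there move both.

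**Figure D5:**
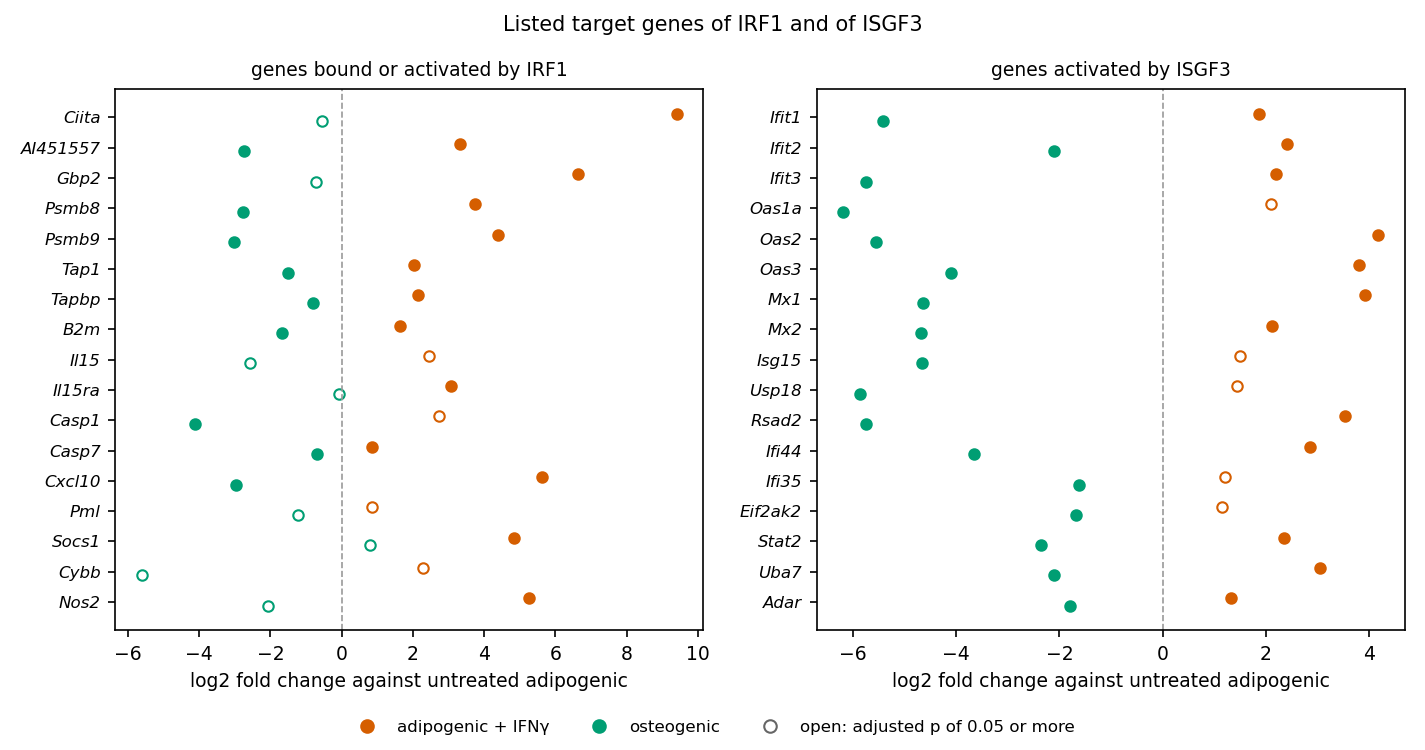
Log2 fold changes against untreated adipogenic progenitors of 17 listed genes bound or activated by IRF1 and 17 of the 18 activated by ISGF3, in orange for IFNγ and green for osteogenic progenitors, open where the adjusted p is 0.05 or more. The 17 ISGF3 genes drawn lie below 0 in osteogenic progenitors and above 0 with IFNγ.

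Genes whose log2(CPM + 0.5) followed a member most closely over the 9 libraries were found among 9465 genes. For Irf1 these were Il18bp (Pearson r = 0.998), Gbp2 (0.997) and Serpina3f (0.995), and for Batf2 they were Gbp10 (0.999), Il18bp (0.998) and Gbp4 (0.997). Irf8 was followed by Ubd (0.997), Cxcl9 (0.996) and Gbp10 (0.995). For Irf7 they were Mx2 (0.996), Ifih1 (0.996) and Oasl2 (0.995), and for Irf9 they were Isg15 (0.989), Znrf2 (0.988) and Usp18 (0.987). Among the members themselves r was 0.993 for Irf1 with Batf2, 0.993 for Irf1 with Irf8 and 0.972 for Irf7 with Irf9, but 0.675 for Irf9 with Batf2 and −0.687 for Irf3 with Batf2. The libraries fall into 3 groups and share their scaling, so such values describe the order of group means and carry no test. Mean CPM of Isg15 in untreated, treated and osteogenic libraries was 192, 544 and 7.57, which shows the low osteogenic level that Irf9 and Irf7 have and Irf1 lacks.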

How the data were processed

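The deposited values are raw counts of reads per Ensembl gene, 1 column for each of 9 libraries, not normalized by the authors as far as the file headers show. Tools and build in the submitters' processing notes are bedtools 2.11, CASAVA 1.8.0 and mm9. The kit was directional per the labels' protocols, but no aligner, counting program or strand setting is named: these were not given in the sources used here.

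Groups came from the titles and the series design. With edgeR 4.0.16 in R 4.3.3, filterByExpr by group removed low genes, libraries were scaled with TMM, and a robust quasi-likelihood model with a term for group was fitted to all 9 libraries. Fold changes were tested by two-sided quasi-likelihood F tests, with p-values adjusted by Benjamini and Hochberg over 15098 genes and called at 0.05. The SE is the size of the fold change over the square root of F, and 95% intervals use the t distribution with the model's degrees of freedom. Level per length is CPM over the deposited exonic length. The script was tested on simulated data.

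The numbers 4, 5 and 6 were checked as a pairing. Across genes, departures from the mean of the group had correlations of 0.791, 0.786 and 0.797 for same-numbered treated and untreated adipogenic libraries. These were taken as paired in an alternative fit only. The main fit, and its repeats with 1 library left out, had no term for the number. Departures of osteogenic libraries had correlations of −0.0959 to 0.0616 with the same number in the adipogenic groups, and were not paired in that alternative fit. All pairs of replicates differed by more than sampling noise.

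The genes and the 10 lists were chosen with earlier results of these data known. All members are named, and from each list up to 4 genes per comparison ranked by adjusted p, if the higher group averaged 1 CPM or more. Some listed genes outside this rule are named too, such as E330016A19Rik, Ptprc and Pparg. The 3 genes most like a member averaged 10 CPM or more in the highest group, with predicted genes left out. Of 134 list entries 123 were matched by name or older name, and the others were not analysed here. The counts of 2 lists include 1 gene whose own values are not reported here. DESeq2 1.42.0, limma-voom (limma 3.58.1), other scalings, no filter, fewer libraries and replicate blocks were run as alternatives. The counts of listed genes under them were added after the data were seen.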

Additional observations from a re-analysis of the deposited data

How the results depend on the processing

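Of 318 fold changes of members recomputed under other settings, 306 kept their direction and their side of the threshold, 6 lost a call (all Irf2 with IFNγ), 2 gained one (Irf9 with IFNγ, under either replicate block) and 4 changed sign. The sign changes were in values never called: Irf8 in osteogenic progenitors with limma-voom (0.20), and Irf5 in treated against osteogenic ones with no filter beyond 1 count (0.0105) and over the fits with 1 library left out (−0.39 to 0.32). Irf8 and Batf2 gave no osteogenic against untreated value with only the 6 libraries compared, since they missed the filter there. The count of all genes called with IFNγ, 341, was 1043 with DESeq2 and 178 when fitted to the 6 adipogenic libraries alone. It was 1631 when same-numbered adipogenic libraries were paired in a replicate block, and 194 to 278 with 1 library left out. Osteogenic against untreated gave 780, which was 2167 with DESeq2, 1244 with the replicate block over all 9 libraries and 159 to 475 with 1 left out. Treated against osteogenic gave 2525, which was 3822 with DESeq2 and 1312 to 1979 with 1 left out. Members called with IFNγ numbered 4 to 5 with 1 library left out, and 2 and 6 in the other comparisons under every setting run. The replicate block changed no other call of a member. The cause of these shifts was not tested. The Irf1 share difference was 34.7 to 36.7 percentage points with 1 library left out. With a pseudocount of 2 CPM, 2 of the 3 genes most like Irf1 and 2 of the 3 most like Irf7 stayed the same. Counts were lowest for Irf8 and Batf2, with 10 to 39 per group without IFNγ.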

Other observations

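Treated library 4 had the lowest CPM of the 3 treated libraries for all 8 genes, while it was the lowest of the 3 for 35.4% of all genes tested. Among untreated libraries number 4 was lowest for 5 of the 8. Treated library 5 was highest for 5 of the 8 (Irf1, Irf3, Irf5, Irf7 and Irf9) and treated library 6 for the other 3. This pattern was noticed after the values were seen and was not tested.

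The 5 endothelial markers in the table summed to 9.19 to 17.8 CPM in untreated adipogenic, 22.2 to 54.4 in treated and 1.67 to 2.63 in osteogenic libraries, nearly all of it Kdr, which codes for a VEGF receptor and stood at 12.0 ± 4.74, 39.4 ± 16.5 and 1.73 ± 0.573 CPM (SD, n = 3). Kdr did not pass with IFNγ (edgeR, adjusted p = 0.0901, and 0.0101 with the pairing) and was lower in osteogenic progenitors (adjusted p = 0.0146), a call lost without osteogenic replicate 5 or 6 (largest adjusted p 0.068). Tek, the other marker tested, did not pass in either comparison (0.951 and 0.54). Pecam1 and Cdh5 had means of at most 0.0959 CPM in any group, and Emcn had no counts. The part of such cells in the results was not tested.

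Of 10 genes that regulate or mark fat or bone formation, 5 were higher in osteogenic than in untreated adipogenic progenitors (edgeR). So were 2 of 10 tested stromal markers, where 1.98% of all genes were called higher. Without osteogenic replicate 4 only Sp7 of the 5 was called, and Runx2, Alpl, Ibsp and Dlx5 were not. The fat genes Pparg, Cebpa, Cebpb and Fabp4, named after their values were seen, did not pass with edgeR (adjusted p = 0.12, 0.921, 0.92 and 0.314). Pparg passed with DESeq2. Of the 2 stromal calls, Col1a1 was lost when any 1 of the 6 libraries was dropped (largest adjusted p 0.104) and Col1a2 was kept (0.0462). With IFNγ 0 of the 10 stromal markers passed in the unpaired edgeR fit. When same-numbered libraries were paired 5 were called lower, beside 4.27% of all genes. These were Col1a1, Col1a2, Col3a1, Pdgfrb and Cxcl12.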
